A study of Mus musculus with 26 samples.

Results

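The 9 genes described here encode the proteins that set the cyclic AMP (cAMP) level of a T lymphoma cell and 1 direct sensor of cAMP: the prostaglandin E2 receptor EP4 (Ptger4), the stimulatory G protein subunit Gs alpha (Gnas), the inhibitory subunits Gi alpha 2 and 3 (Gnai2, Gnai3), 4 adenylyl cyclases (Adcy3, Adcy6, Adcy7, Adcy9) and the exchange factor EPAC1 (Rapgef3). They were chosen by gene symbol and not by a rule on their measured values, though with earlier results of these data known. They are 9 of the 12393 genes that the platform annotation names with a single symbol. Together they have 25 probe sets, of which 16 were bright enough to be tested. Every member had at least 1 of these, and the brightest stood for the gene.

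The cells were mouse S49 T lymphoma cells, an established line grown in suspension. Raised cAMP arrests and then kills the wild type (WT). The deathless variant (D-) survives it, and the labels give neither a mutation nor a clone for D-. Gene expression was profiled on 26 Affymetrix arrays of 1 sample each, in 8 groups: untreated WT and D- cells (4 arrays each) and both lines after 2, 6 or 24 h in 8-CPT-cAMP, a cAMP analogue that crosses the cell membrane (3 arrays each). All treated groups had the same labelled dose, 100 mM, whose unit may be an error, and no vehicle is named for the untreated cells. Treated WT samples carry the word untreated in their titles but are treated by their source and description, which were followed here. The replicates are called biological, with no word on separate cultures, so p-values cover only variation among these samples, part of which may be technical.

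In this pathway a hormone receptor such as EP4 activates Gs, whose alpha subunit stimulates membrane adenylyl cyclases to make cAMP, while Gi alpha subunits inhibit several of those cyclases. The cAMP formed activates protein kinase A and EPAC1, which loads GTP onto the small GTPase RAP1. The cyclases differ in regulation: that encoded by Adcy6 is inhibited by Gi and by calcium, and that encoded by Adcy7 is the form typical of blood cells. S49 cells hold a place in the history of the pathway, since variants of this line without Gs alpha activity served in the discovery of Gs. A cAMP analogue enters downstream of receptor, G protein and cyclase, so the values below are transcript levels of these proteins in cells whose cAMP signal did not need them.

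Members of the pathway moved in opposite directions. At 24 h Rapgef3, Gnai3, Adcy6, Adcy7 and Gnai2 were higher in both lines, Gnas was higher in WT, and Ptger4 was lower in both lines. The D- rise of Adcy7 at 24 h was called on 1 of its 3 probe sets and not called in 7 of 20 alternative fits. Adcy6 and Adcy7 were first lower, at 2 h, then near the untreated level at 6 h and above it at 24 h. In the promoters of the members that rose or fell most, a cAMP response element was sought, since this is the site that cAMP-activated CREB binds. The palindrome TGACGTCA and the shorter TGACG, which lies within it, were searched on both strands of the 250 bases before the start site, in RefSeq promoters of build GRCm38.p6. Promoters of Rapgef3, with the largest rise (in D- at 24 h), and Ptger4, with the largest fall, are shown 5′ to 3′ on the gene's strand, with TGACG in capitals.
Rapgef3: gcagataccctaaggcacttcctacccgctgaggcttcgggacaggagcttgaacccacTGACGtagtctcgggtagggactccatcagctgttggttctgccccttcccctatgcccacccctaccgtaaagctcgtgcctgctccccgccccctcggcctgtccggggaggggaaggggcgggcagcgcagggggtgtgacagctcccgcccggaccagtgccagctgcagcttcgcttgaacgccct
Ptger4: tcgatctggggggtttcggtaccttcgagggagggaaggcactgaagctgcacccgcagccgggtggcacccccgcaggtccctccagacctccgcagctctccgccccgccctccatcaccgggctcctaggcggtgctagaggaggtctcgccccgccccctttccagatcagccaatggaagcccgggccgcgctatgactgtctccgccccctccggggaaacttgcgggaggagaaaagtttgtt
The Rapgef3 promoter lies at chr15:97767667-97767916 on the minus strand and holds TGACG once, starting 191 bases before the start site. The Ptger4 promoter lies at chr15:5244188-5244437 on the minus strand and holds neither motif. RefSeq promoters were matched for 7 of the 9 members, not for Gnai2 and Adcy6, and gave 13 promoters, since Gnas, Adcy3 and Adcy7 have several. TGACG was found in 6 of these, of Gnas, Adcy7, Adcy9 and Rapgef3, and TGACGTCA in 0. Of the 3 Gnas promoters that hold it, 2 overlap and share 1 site, so the 6 promoters hold 5 sites. Over 32851 RefSeq promoters of the same length, 17.8% held TGACG and 1.55% held TGACGTCA. A match describes the letters of the window and does not show a bound site.

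T cell identity was checked on the same arrays. Of 9 T cell markers on the array, 8 were at or above log2 5 in at least 1 group, and Cd5 was under it in all groups. Cd247, the T cell receptor zeta chain, averaged 9.34 on the log2 intensity scale in untreated WT and 4.60 in untreated D-. By the same measure 1 of 4 B cell, 2 of 5 myeloid, 1 of 2 erythroid and 1 of 4 stromal markers reached log2 5. Their group means were at most 6.42, and those of the T cell marker Cd8a at most 6.21. Intensities under log2 5 were treated as not measurable. Replicate arrays had Pearson r values from 0.990 to 0.998 over all probe sets except the controls, tested or not. Their deviations from the group means nevertheless split the arrays into a set of 10 and a set of 16 that the labels do not name. The set of 10, called cluster 1 below, holds the first treated array of every treated group and, in each line, untreated arrays 1 and 2. It had a lower log2 signal of the 3′ against the 5′ Gapdh control probes, -0.146 ± 0.058 (SD, n = 10) against 0.018 ± 0.094 (n = 16), and fits that take the split into account are given below. Within cluster 2 alone all 23 called values of members kept their direction and 21 were called. Within cluster 1 all 23 kept it too, in a fit that has replicates only in the untreated groups. These values were picked as called on the same arrays, so the kept direction is no independent check. The split was also drawn from these arrays, so p-values of fits that use it tend to be too small.

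**Figure D1:**
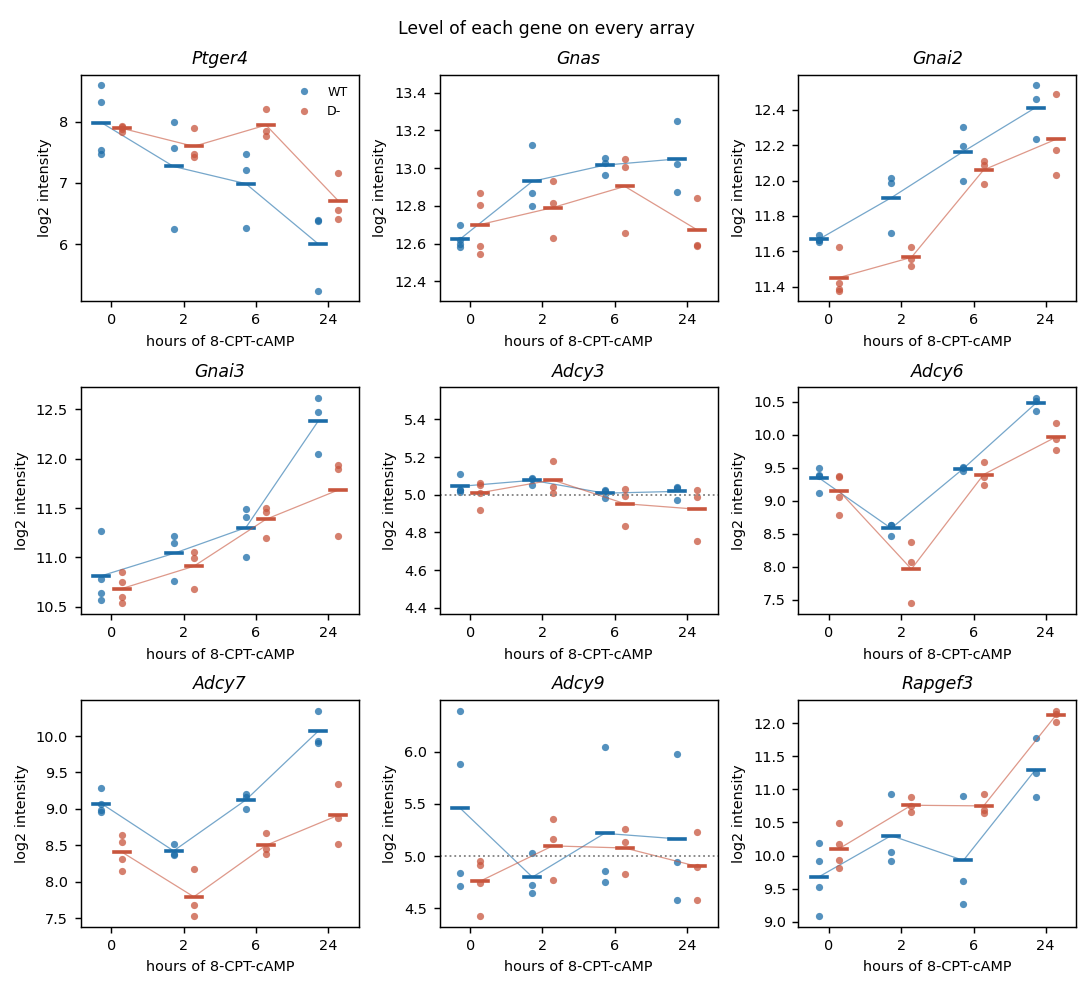
Log2 intensity (vertical axis) of each of the 9 genes in WT and D- cells at 0, 2, 6 and 24 h of 8-CPT-cAMP (horizontal axis). Each point is 1 array, short bars are group means and thin lines join them (4 arrays untreated, 3 per treated time). Rapgef3, Gnai2 and Gnai3 end above their untreated arrays in both lines, Ptger4 ends below, Adcy6 and Adcy7 dip at 2 h, and Adcy3 and Adcy9 lie at the detection limit of log2 5.

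The first question was which members changed with treatment in each line. In WT, 0 members were higher and 2 lower at 2 h, when 25.1% of all 7435 genes tested were called. Of all genes 11.2% were higher and 13.9% lower at that time. At 6 h, 2 members were higher and 1 lower, against 38.2% of genes called (19.1% higher and 19.1% lower). At 24 h, 6 were higher and 1 lower, against 53.8% (26.4% and 27.5%). In D-, 0 members were higher and 2 lower at 2 h (22.3% of genes called, 9.05% higher and 13.2% lower). At 6 h 2 members were higher and 0 lower (31.8% of genes called, 16.2% higher and 15.6% lower), and at 24 h 5 were higher and 1 lower (34.7%, 17.1% and 17.6%). The median log2 change of the 9 members at 24 h was 0.74 in WT and 0.50 in D-, where the medians over all genes were 0.00 and -0.02. All 3 times of a line share its untreated arrays, so their values are given side by side and are not independent. In bulk RNA, fewer cells of a type and less RNA per cell cannot be told apart.

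**Figure D2:**
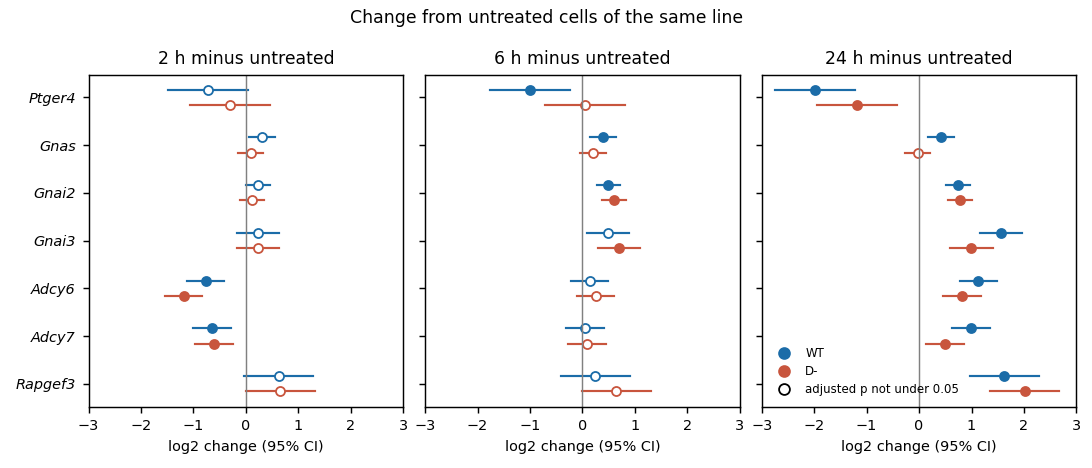
Log2 change from untreated cells (horizontal axis, with the 95% confidence interval of the limma fit, filled where called) of the 7 genes above the detection limit in every group, at 2, 6 and 24 h in WT and D-. At 24 h the changes run from -1.98 for Ptger4 in WT to 2.01 for Rapgef3 in D-.

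Ptger4, whose product EP4 couples prostaglandin E2 to Gs, fell in both lines by 24 h. Untreated WT arrays read 7.48, 7.55, 8.60 and 8.32 on the log2 intensity scale, and the WT arrays at 24 h read 5.24, 6.38 and 6.40. All 3 treated arrays lay below every untreated one, a log2 change of -1.98 ± 0.37 (SE), or 3.93-fold lower (limma adjusted p = 0.000102). In D- the untreated arrays read 7.84, 7.89, 7.92 and 7.94 and those at 24 h 6.57, 6.41 and 7.16. These groups did not overlap either, and the log2 change was -1.18 ± 0.37, or 2.27-fold lower (adjusted p = 0.0158). Without replicate 2 of D- at 24 h it was -1.03 (adjusted p = 0.0811). At 6 h the lines stood apart: WT arrays read 6.27, 7.48 and 7.22, and D- arrays 8.22, 7.85 and 7.77. The WT change at 6 h, -1.0 ± 0.37 (adjusted p = 0.0385), was no longer called without treated replicate 1 (-0.64, adjusted p = 0.222) or 3 (-1.11, 0.0549), or without untreated replicate 3 (-0.79, 0.119) or 4 (-0.89, 0.0923). It was also not called with no filter on dim probe sets (adjusted p = 0.0742) or in a fit to the compared groups alone (0.0813). With a block for the cluster it was -1.08 (adjusted p = 0.00681), in a fit whose p-values tend to be too small. Within cluster 2 alone it was -1.11, and within cluster 1 -1.24. Every WT group read lower in cluster 1 than in cluster 2, by 0.95 to 1.53. In D- groups this difference, cluster 1 minus cluster 2, ran from -0.22 to 0.44. In D- the change at 6 h was 0.05 ± 0.37 (adjusted p = 0.937). The difference between the lines' responses at 6 h was 1.05, with a 95% interval from -0.03 to 2.13 (adjusted p = 0.842). WT at 2 h gave -0.72 ± 0.37 (adjusted p = 0.176), and within clusters 1 and 2 taken alone -1.26 (0.0204) and -0.68 (0.0311). In order of group mean, neighbouring groups overlapped from untreated WT (7.99) down to D- at 24 h (6.71). WT at 24 h (6.01) came last, its highest array (6.403) just under the lowest of D- at 24 h (6.405). It overlapped WT at 2 h and at 6 h, whose lowest arrays read 6.25 and 6.27. A second Ptger4 probe set was too dim to be tested.

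Gnas, which encodes Gs alpha, rose slightly in WT. Untreated WT arrays read 12.60, 12.62, 12.58 and 12.70, those at 6 h 13.03, 13.06 and 12.96, and those at 24 h 12.87, 13.02 and 13.25. No treated WT array overlapped the untreated ones, at 2 h (12.87, 12.80 and 13.12) either. The log2 changes in WT were 0.31 ± 0.12 at 2 h (adjusted p = 0.0645), 0.39 ± 0.12 at 6 h (0.0124) and 0.42 ± 0.12 at 24 h (0.00444), at most 1.34-fold. In the fit with a block for the cluster, whose p-values tend to be too small, the change at 2 h was also called (0.28, adjusted p = 0.0286). Fits without the split called it with a block for the replicate number (0.34, adjusted p = 0.0183) and with trend and robust eBayes settings (0.31, 0.0488). In D- the arrays overlapped at every time, and the changes were 0.09 ± 0.12 (adjusted p = 0.685), 0.20 ± 0.12 (0.218) and -0.03 ± 0.12 (0.895). At 24 h D- arrays read 12.59, 12.59 and 12.84 against 12.59, 12.55, 12.87 and 12.81 untreated. The response at 24 h was 0.45 ± 0.17 lower in D- than in WT, with a 95% interval of the difference from -0.80 to -0.10 on the log2 scale. Its adjusted p was 0.0853. Among 27 tests of members, each by its brightest probe set, this was the sole difference of response with an unadjusted p under 0.05. It was called without replicate 1 of WT at 24 h (-0.54, adjusted p = 0.0337), with a block for the cluster (-0.45, 0.0199), with array weights (-0.61, 0.00403) and within cluster 2 (-0.62, 0.0382). A block for the replicate number (-0.45, adjusted p = 0.0326) and added quantile normalization (-0.52, 0.0324) also called it. Within cluster 1 the WT rise at 24 h was 0.27 (adjusted p = 0.172). All groups overlapped their neighbours in the order of means, from WT at 24 h (13.05) to untreated WT (12.62). The tested probe set does not separate the several transcripts of this locus, and the other 3 Gnas probe sets were under log2 5 on all arrays.

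Gnai2 and Gnai3, which encode inhibitory G alpha subunits, rose in both lines. Gnai3 in WT read 10.57, 10.64, 11.26 and 10.78 before treatment and 12.04, 12.62 and 12.47 at 24 h. These groups lay well apart, with a log2 change of 1.56 ± 0.19, or 2.96-fold (adjusted p = 6.55e-07). In D- Gnai3 read 10.60, 10.53, 10.75 and 10.85 before and 11.22, 11.93 and 11.90 at 24 h, again without overlap. The D- changes were 0.70 ± 0.19 at 6 h (adjusted p = 0.00801) and 1.0 ± 0.19, or 2.0-fold, at 24 h (0.000359). At 6 h the WT change, 0.49 ± 0.19, missed the threshold (adjusted p = 0.0534), and it was called in 11 of the alternative fits, among them without WT replicate 1 at 6 h (0.64, 0.0232) and without untreated WT replicate 3 (0.64, 0.0127). A second Gnai3 probe set was called higher at 24 h in both lines. Gnai3 was lower in cluster 1 than in cluster 2 in all 8 groups, by 0.24 to 0.70. WT at 24 h (12.38) lay above D- at 24 h (11.68) without overlap, and from there down every group overlapped the next.

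Gnai2 rose by 6 h in both lines. WT arrays read 11.66, 11.65, 11.67 and 11.69 before treatment, 12.20, 12 and 12.30 at 6 h, and 12.24, 12.54 and 12.46 at 24 h. In D- they read 11.38, 11.38, 11.62 and 11.42 before, 11.98, 12.09 and 12.11 at 6 h, and 12.03, 12.49 and 12.17 at 24 h. Treated arrays at 6 and 24 h lay above all untreated arrays of their line. The log2 changes were 0.50 ± 0.11 in WT (adjusted p = 0.00116) and 0.61 ± 0.11 in D- (0.000206) at 6 h, and 0.74 ± 0.11 (6.31e-06) and 0.78 ± 0.11 (9.69e-06) at 24 h, or 1.67-fold and 1.72-fold. The difference of response at 24 h was 0.04, with a 95% interval from -0.28 to 0.36. At 2 h the changes were 0.23 ± 0.11 in WT (adjusted p = 0.132) and 0.11 ± 0.11 in D- (0.547), and the former was called without WT replicate 1 at 2 h (0.33, 0.0451). Both Gnai2 probe sets were called higher at 6 and 24 h in both lines. The untreated lines are compared further on.

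Adcy6, a cyclase inhibited by Gi and calcium, fell at 2 h and rose above its untreated level by 24 h in both lines. WT arrays read 9.12, 9.39, 9.49 and 9.38 untreated, 8.47, 8.64 and 8.64 at 2 h, 9.46, 9.50 and 9.50 at 6 h, and 10.35, 10.51 and 10.56 at 24 h. The arrays at 2 h lay below and those at 24 h above every untreated array. In D- they read 9.38, 9.36, 8.79 and 9.06 untreated, 8.37, 8.08 and 7.45 at 2 h, 9.58, 9.24 and 9.36 at 6 h, and 9.77, 9.94 and 10.18 at 24 h, with the same absence of overlap at 2 and 24 h. At 2 h the log2 change was -0.76 ± 0.17 in WT (1.70-fold lower, adjusted p = 0.00182) and -1.18 ± 0.17 in D- (2.27-fold lower, 2.12e-05). At 6 h it was 0.14 ± 0.17 (adjusted p = 0.566) and 0.25 ± 0.17 (0.295). At 24 h it was 1.13 ± 0.17 in WT (2.18-fold higher, adjusted p = 8.67e-06) and 0.82 ± 0.17 in D- (1.76-fold higher, 0.000734). From 2 to 24 h the mean rose from 8.58 to 10.47 in WT and from 7.96 to 9.96 in D-. The D- rise at 24 h was 0.40 (adjusted p = 0.199) within cluster 1 and 1.14 within cluster 2. Differences of response between the lines were not called: -0.42 at 2 h (95% interval -0.92 to 0.08), 0.11 at 6 h and -0.31 at 24 h (-0.81 to 0.19). In the order of means the groups at 24 h and at 2 h stood apart from one another and from the rest, and the untreated and 6 h groups overlapped. Adcy6 had 1 probe set.

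Adcy7, the blood cell form of the enzyme, took a like course and had a lower untreated level in D-. WT arrays read 9.07, 8.98, 9.29 and 8.96 untreated, 8.38, 8.52 and 8.36 at 2 h, 9.21, 8.99 and 9.17 at 6 h, and 9.91, 10.35 and 9.94 at 24 h. The 2 h arrays lay below and the 24 h arrays above all untreated ones, with log2 changes of -0.65 ± 0.17 (1.57-fold lower, adjusted p = 0.00788) and 0.99 ± 0.17 (1.99-fold higher, 5.29e-05). At 6 h the change was 0.05 ± 0.17 (adjusted p = 0.866). All 3 Adcy7 probe sets were called higher at 24 h in WT, whereas 1 of 3 was called lower at 2 h. In D- the arrays read 8.14, 8.64, 8.31 and 8.55 untreated, 7.53, 7.68 and 8.17 at 2 h, 8.39, 8.45 and 8.67 at 6 h and 8.52, 8.88 and 9.34 at 24 h. Treated and untreated D- arrays overlapped at both 2 and 24 h. The D- change at 2 h was -0.62 ± 0.17 (adjusted p = 0.0131), called on 2 of 3 probe sets and not called without replicate 1 (-0.48, 0.0917) or 2 (-0.56, 0.0630) of that group. The D- change at 24 h was 0.50 ± 0.17 (adjusted p = 0.0295), called on 1 of 3 probe sets. It was 0.29 (adjusted p = 0.251) without D- replicate 3 at 24 h, and it was also not called without replicate 2 at 24 h (0.52, 0.0668) or without untreated D- replicate 1 (0.41, 0.0953) or 3 (0.47, 0.0663). Within cluster 1 it was 0.13 (adjusted p = 0.777). WT at 24 h (10.07) stood above all other groups, and every further group overlapped the next, down to D- at 2 h (7.79).

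**Figure D3:**
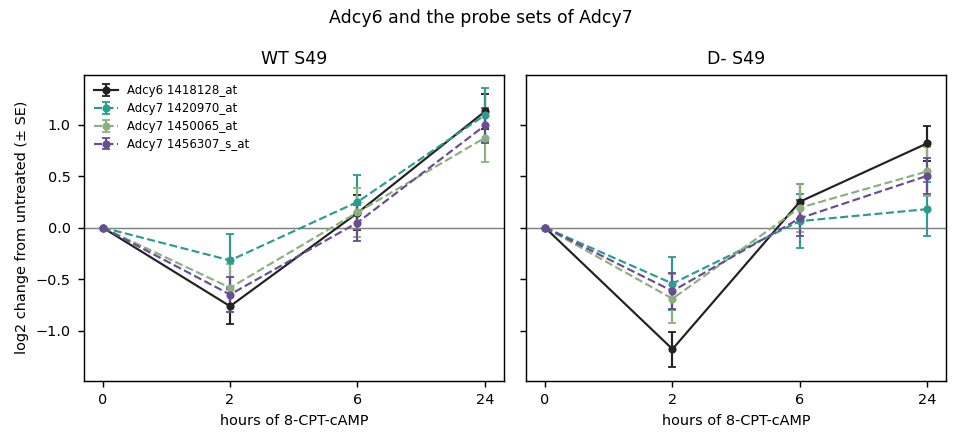
Log2 change from untreated cells (vertical axis, with SE) of the single Adcy6 probe set and the 3 Adcy7 probe sets at 2, 6 and 24 h (horizontal axis) in WT and D-. All 4 probe sets are lowest at 2 h and highest at 24 h in WT.

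Adcy3 and Adcy9, 2 further cyclases, gave no measurable change. Adcy3 read between 4.76 and 5.18 on all 26 arrays, at or above log2 5 on 19, and 2 of its 8 group means were under that limit. Adcy9, a widely expressed cyclase that forskolin stimulates poorly, read between 4.42 and 6.39 and reached log2 5 on 10 arrays. In untreated WT its arrays read 6.39, 5.88, 4.72 and 4.84, the high values being those of cluster 1. The first WT arrays at 6 and 24 h, also of cluster 1, read 6.04 and 5.98 while the others of these groups were under 5. Neither gene was called in a comparison of the fit to all arrays. Within cluster 2 alone Adcy9 was called higher in D- at 2 h (0.59, adjusted p = 0.0342), from an untreated mean under log2 5, and values so near the detection limit give bounds rather than levels. The other probe sets of both genes were too dim to be tested.

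Rapgef3, which encodes the cAMP sensor EPAC1, rose at 24 h in both lines, in D- by more than any of the other members. WT arrays read 9.91, 10.19, 9.08 and 9.53 untreated and 11.77, 10.88 and 11.25 at 24 h. D- arrays read 10.18, 10.49, 9.94 and 9.81 untreated and 12.19, 12.14 and 12.02 at 24 h. No treated array overlapped the untreated ones of its line. The log2 change at 24 h was 1.62 ± 0.32 in WT (3.08-fold, adjusted p = 0.000167) and 2.01 ± 0.32 in D- (4.04-fold, 3.84e-05), and all 4 Rapgef3 probe sets were called in both lines. In WT its change lay close to that of Gnai3 (1.56): without WT replicate 1 at 24 h Rapgef3 gave 1.39 and Gnai3 1.73. The difference of response, 0.39 ± 0.45, had a 95% interval from -0.54 to 1.32 (adjusted p = 0.659).

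Earlier changes of Rapgef3 were less certain. At 2 h the arrays read 10.93, 9.92 and 10.06 in WT and 10.88, 10.66 and 10.75 in D-, and the D- arrays lay above all untreated ones. The log2 changes at 2 h were 0.62 ± 0.32 in WT (adjusted p = 0.170) and 0.66 ± 0.32 in D- (0.159). At 6 h WT arrays read 10.90, 9.27 and 9.61, a change of 0.25 ± 0.32 (adjusted p = 0.597), and D- arrays 10.92, 10.68 and 10.65, a change of 0.65 ± 0.32 (0.134). Rapgef3 read higher in cluster 1 than in cluster 2 in all 8 groups, by 0.11 to 1.47. With a block for the cluster the changes at 2 h were 0.72 in WT (adjusted p = 0.00819) and 0.76 in D- (0.00661), and that in D- at 6 h was 0.75 (0.00547). The split was drawn from these arrays' own deviations, so p-values of this fit tend to be too small. Without use of the split, array weights also called the D- changes (0.72 at 2 h, adjusted p = 0.0265, and 0.68 at 6 h, 0.0138). So did a fit to the compared groups alone (adjusted p = 0.0235 at 2 h and 0.0194 at 6 h), and no other fit without the split. The WT change at 2 h was called only in fits that use the split. The rise at 24 h was 1.76 in WT and 2.21 in D- within cluster 2.

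**Figure D4:**
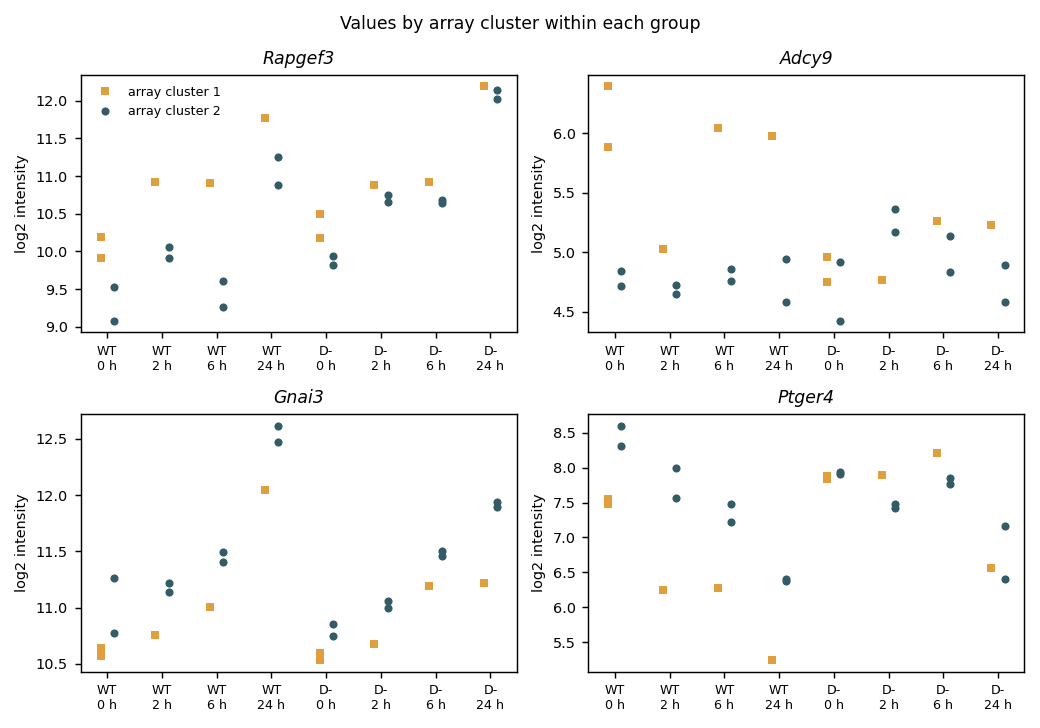
Log2 intensity (vertical axis) of Rapgef3, Adcy9, Gnai3 and Ptger4 by group (horizontal axis), with arrays of cluster 1 and cluster 2 marked apart. Rapgef3 reads higher and Gnai3 lower on the arrays of cluster 1 in all 8 groups.

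Before treatment the lines differed in 1 of the 9 members, where 5.00% of genes were called, 1.91% higher and 3.09% lower in D-. Adcy7 was lower in D-, with all 4 D- arrays (8.14 to 8.64) below all 4 WT arrays (8.96 to 9.29). The log2 difference, D- minus WT, was -0.66 ± 0.16, or 1.58-fold lower (adjusted p = 0.0163), and 2 of 3 probe sets were called. It was not called without untreated D- replicate 1 (-0.58, adjusted p = 0.0710) or untreated WT replicate 3 (-0.59, 0.0672), nor within cluster 1 (-0.63, 0.252) or cluster 2 (-0.69, 0.0736). Gnai2 was also lower in all 4 D- arrays than in any WT array, by 0.22 ± 0.10 (adjusted p = 0.350), and its second probe set was called (log2 difference -0.46 ± 0.12, 0.0275). Untreated levels of Gnas, Gnai3, Adcy6, Ptger4 and Rapgef3 overlapped between the lines, with log2 differences from -0.20 for Adcy6 to 0.43 for Rapgef3.

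No response of a member was called different between the lines in 27 tests by limma, 9 at each time, where 0.242%, 0.592% and 12.3% of genes were called at 2, 6 and 24 h. The differences at 24 h, D- minus WT, were -0.57 ± 0.27 for Gnai3 (adjusted p = 0.204), -0.49 ± 0.25 for Adcy7 (0.227), -0.45 ± 0.17 for Gnas (0.0853) and 0.79 ± 0.52 for Ptger4 (0.382). The 95% intervals reached from -1.13 to 0.00 for Gnai3 and from -1.0 to 0.02 for Adcy7. The difference of Gnai3 was called with a block for the cluster (-0.57, adjusted p = 0.00633), a fit whose p-values tend to be too small. It was also called with a block for the replicate number (-0.57, adjusted p = 0.0329). The second Gnai3 probe set gave -0.09. The other Adcy7 probe sets gave -0.91 (unadjusted p = 0.0209, adjusted p = 0.116) and -0.33.

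Other genes of the pathway were taken from lists of receptors, G proteins, their modulators and the RAP1 branch. Of 69 such genes on the array 35 could be tested. In WT 3 were higher and 5 lower at 2 h, 11 and 3 at 6 h, and 13 and 3 at 24 h, where 25.1%, 38.2% and 53.8% of all genes were called. In D- the counts were 2 and 5, 17 and 2, and 9 and 2, beside 22.3%, 31.8% and 34.7% of all genes. By direction, the shares of all genes higher and lower in WT were 11.2% and 13.9%, 19.1% and 19.1%, and 26.4% and 27.5%. Those in D- were 9.05% and 13.2%, 16.2% and 15.6%, and 17.1% and 17.6%.

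Of 13 Gs-coupled receptors on the array, Gpr65, a proton-sensing receptor, was the 1 that could be tested besides Ptger4. Its log2 changes in WT were 0.88 ± 0.27 at 2 h (adjusted p = 0.0197), 1.11 ± 0.27 at 6 h (0.00265) and 1.02 ± 0.27 at 24 h (0.00294). In D- they were 1.29 ± 0.27 (adjusted p = 0.00120), 1.23 ± 0.27 (0.00139) and 0.17 ± 0.27 (0.681). The difference of response at 24 h, D- minus WT, was not called (-0.85 ± 0.38, adjusted p = 0.171). None of the 3 other adenylyl cyclase genes on the array could be tested. Of 4 other G alpha genes tested, Gna13 rose at 6 h in both lines (0.32 ± 0.12 in WT, adjusted p = 0.0347) and Gna12 at 6 h in D- (0.69 ± 0.15, 0.00167), while Gna11, of the Gq class, fell at 24 h in WT (-0.39 ± 0.16, 0.0477). Gna12 at 6 h in WT changed by 0.34 ± 0.15 (adjusted p = 0.0936). The differences of response were not called for Gna12 at 6 h (0.35, adjusted p = 0.976) or Gna11 at 24 h (0.45, 0.234). Gnat2, the transducin subunit of cones, was lower at 6 h in WT (adjusted p = 0.0131), from a mean of 5.30 to a mean below log2 5. The group means thus differ by at least 0.30 on the log2 scale. That bound takes no account of the spread of arrays, and both means lay near the detection limit.

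Among 6 G beta and gamma genes, 2 rose in WT and 4 in D- at 24 h, and 0 fell, where 26.4% and 17.1% of all genes rose. Gnb4, a G beta subunit, rose most, by 1.88 ± 0.19 in WT (adjusted p = 3.10e-08) and 1.30 ± 0.19 in D- (1.20e-05). Of 10 receptor kinases, arrestins, chaperones and modulators, 6 rose and 1 fell at 24 h in WT, and 3 rose and 1 fell in D-, beside 53.8% and 34.7% of all genes called. Gpsm3, a binder of Gi alpha subunits, rose by 1.53 ± 0.13 in WT at 24 h (adjusted p = 3.74e-09), and its relative Gpsm1 rose by 1.99 ± 0.26 in D- (4.18e-06). Before treatment Gpsm1 was lower in D- by -1.28 ± 0.24 (adjusted p = 0.00193). Arrb2, an arrestin that ends receptor signalling, fell at 2 h in both lines (-0.71 ± 0.17 in WT, adjusted p = 0.00410, and -0.72 ± 0.17 in D-, 0.00382). Like Adcy6 it was higher at 24 h, by 1.16 ± 0.17 (adjusted p = 7.92e-06) and 1.04 ± 0.17 (7.76e-05). Gpsm2 fell in WT at 24 h by 0.95 ± 0.16 (adjusted p = 3.26e-05), and its response differed between the lines (0.75 ± 0.23, 0.0335), as did that of Ric8a, a chaperone of G alpha subunits (-0.62 ± 0.18, 0.0260).

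In the RAP1 branch, 4 of 14 tested genes were lower and 0 higher at 2 h in each line, where 13.9% of all genes were lower in WT and 13.2% in D-. Rassf5, a RAP1 effector in T cell adhesion, fell by 0.75 ± 0.13 in WT (adjusted p = 0.000187) and 1.11 ± 0.13 in D- (1.67e-06) at 2 h. At 24 h 4 were higher and 1 lower in WT (53.8% of all genes called), and 2 and 1 in D- (34.7%). Rap1b, a form of RAP1, rose by 0.71 ± 0.19 in WT (adjusted p = 0.00387) and 0.88 ± 0.19 in D- (0.00129). Rap2a rose by 1.43 ± 0.36 in WT (adjusted p = 0.00172). Rapgef1, another exchange factor for RAP1, fell by 0.53 ± 0.11 in WT (adjusted p = 0.000232) and 0.60 ± 0.11 in D- (0.000148), opposite to Rapgef3. Rasgrp2, which also activates RAP1, was lower in untreated D- than in WT by -0.99 ± 0.20 (adjusted p = 0.00353).

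**Figure D5:**
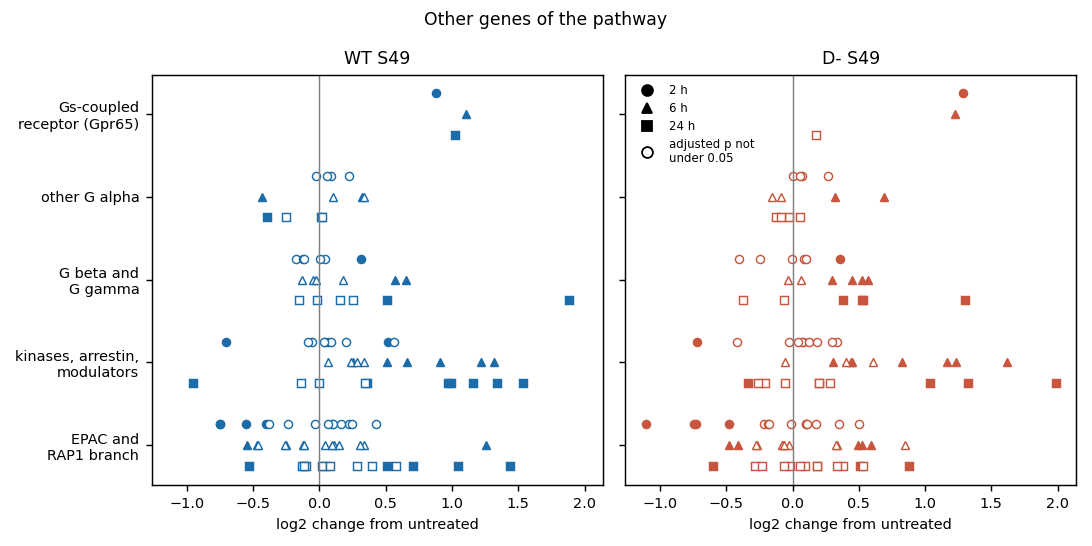
Log2 change from untreated cells (horizontal axis) of each tested gene in the lists of other pathway genes (vertical axis) at 2, 6 and 24 h, in WT (left) and D- (right). Filled symbols passed the test. More of the 35 genes were called higher than lower at 6 and 24 h in both lines. Of all genes, 19.1% were higher and 19.1% lower at 6 h in WT, and 26.4% and 27.5% at 24 h. In D- these shares were 16.2% and 15.6%, then 17.1% and 17.6%. The point farthest to the right is Gnb4 at 24 h (1.88) in WT and Gpsm1 at 24 h (1.99) in D-.

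Genes whose group means ran most like those of a member are given as a description, by Pearson r over the 8 group means, which share libraries. For Adcy6 they were Txlng (r = 0.994), Cyth1 (0.992) and Zfp688 (0.991), and for Adcy7 Tbxa2r (0.992), Vps26b (0.990) and Hibch (0.988). Rapgef3 ran most like Ryk (r = 0.966), Cerk (0.960) and Rhoh (0.947). Ptger4 was followed by Psmd7 (0.964), Mrpl40 (0.962) and Syncrip (0.955). Gnas was followed by Ubl3 (0.953), the chemokine receptor gene Ccr7 (0.947) and Rab11a (0.943). For Gnai2 they were Esyt1 (0.990), Pecam1 (0.989) and Celf2 (0.988), and for Gnai3 Atp13a2, B4galt7 and Arpc5 (0.981 each). Between members, Adcy6 and Adcy7 gave r = 0.897 and Gnai2 and Gnai3 r = 0.915 over the same 8 means.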

How the data were processed

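The authors deposited linear intensity values between 2 and 83530.7, made with GCRMA per the submitters' processing notes. The version, and whether the lines were run together, is not given in the sources used here. This method equalises arrays, so a shift shared by most genes would not be seen. The deposited intensity was converted to log2 without a pseudocount. Of 22690 probe sets, 64 controls were left out; 20380 had 1 gene symbol, 691 several and 1555 none. A probe set was tested if 3 or more arrays reached log2 5 (intensity 32), which left 12724, for 7435 genes.

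limma 3.58.1 in R 4.3.3 (lmFit, eBayes) was fitted to 26 arrays with 8 group means (18 residual and 3.34 prior degrees of freedom) and 10 contrasts. p-values were adjusted by Benjamini-Hochberg over all probe sets of a contrast, with calls at adjusted p under 0.05, and the fit was tested on simulated data. A group mean under log2 5 gives only a bound. Arrays were split into clusters by their sign on the main axis of within-group deviations (38.8% of that variance). Fits that use this split therefore have p-values that tend to be too small. Members, gene lists, and the array clusters and fits that use them were chosen with earlier results of these data known. The genes named are all members and, of each list, some of the called genes with the largest rise or fall in a comparison. Others with the largest change in a comparison, such as Apbb1ip, Gnb1, Grk6 and Pdcl3, are not described. Gna13, Gpr65, Rap1b, Rassf5 and Arrb2 are also followed across times. Alternatives were other eBayes settings, weights, filters, normalizations, probe set means, blocks, clusters and each array left out. Promoters are RefSeq's, build GRCm38.p6. Figures used matplotlib 3.10.9 in Python 3.11.15.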

Additional observations from a re-analysis of the deposited data

Results flagged for a closer look

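Adcy3 in the first untreated WT array read 5.11 on the log2 scale, farther above the other 3 untreated WT arrays than Dixon's critical value allows (gap over range 0.878). Chance gives about 1 such value in 20 groups, and it was the sole one among 18 sets of member values in untreated groups.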

How the results depend on the processing

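Calls of members numbered 12 of 27 in WT, 10 of 27 in D-, 1 of 9 between the untreated lines and 0 of 27 for the difference of response. Leaving out each array in turn gave 11 to 14, 8 to 10, 0 to 1 and 0 to 1. Of all genes, 25.1%, 38.2% and 53.8% were called in WT at 2, 6 and 24 h, and 22.3%, 31.8% and 34.7% in D-. Between the untreated lines 5.00% of genes were called, and for the difference of response 0.242%, 0.592% and 12.3%. Shares of all genes under the alternative fits are not given here, so the counts below stand without them. Within cluster 1 the counts were 7 in WT, 3 in D- and 0 between untreated lines, in a fit with few degrees of freedom. Within cluster 2 they were 15 in WT, 12 in D-, 0 between untreated lines and 1 for the difference of response, and with a cluster block 15 in WT and 12 in D-. When tested probe sets of each gene were averaged, 2 members differed between untreated lines. The difference of response was called for 1 member with array weights, 1 with quantile normalization added, 2 with a cluster block and 2 with the replicate block. The replicate block gave 14 calls in WT, 10 in D- and 1 between untreated lines. The labels do not say what a replicate number shares: deviations of same-numbered arrays correlated at 0.31 to 0.60 for number 1, but below 0 (to -0.47) for treated against untreated arrays of number 2, so the block was not taken as a pairing. Over 90 named member values and all alternatives, 1978 values were computed: 1907 kept their side of the threshold, 33 lost a call, 38 gained one and 0 called values reversed. Causes of these shifts were not tested. The number of arrays, and for Adcy3 and Adcy9 a signal near background, limit these results.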
